A study of Mus musculus with 78 samples.

Results

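The genes examined here are 9 regulators and products of cell types other than muscle, read in the peak lists of synchronized C2C12 myotubes: Cebpa and Pparg for fat, Runx2 and Sp7 for bone, Tal1 and Spi1 for blood, and Hnf4a, Afp and Alb for liver. They are 9 of the 21755 protein-coding genes on the 19 autosomes and chromosome X of the mouse genome mm10. They were chosen by lineage and not by a peak value, but with earlier results of these data known. For each gene a peak was counted at the promoter when it reached within 3 kb of the transcription start site (TSS), taken as the 5′ end of the gene record, and over the gene when it overlapped the record itself.

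C2C12 is a mouse myoblast line whose cells fuse into myotubes, and the cells were synchronized by a serum shock and collected at 12, 16, 20, 24, 28 and 32 h. At each time point 3 biological replicates were profiled by ChIP-seq for Bio-EZH1, SUZ12, H3K27me3 and HA-EZH1, which gave 18 libraries per profile and 72 peak lists in all. Bio-EZH1 and SUZ12 chromatin came, by the study's methods, from a C2C12 line that carries an shRNA against Ezh1 together with the biotin ligase BirA and a transgenic EZH1α with an Avi tag. This line is a pool of sorted cells, and the biotinylated EZH1α was recovered on streptavidin beads, so that Bio-EZH1 maps the transgenic protein in cells depleted of their own. H3K27me3 is labelled as C2C12. SUZ12 lists are named for streptavidin where they were deposited, while their labels and the study's methods name a SUZ12 antibody. The labels were followed here, and the lists cannot settle which holds. HA-EZH1 libraries are labelled C2C12 without an antibody or a modified line, and their 6 input samples were not used here.

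Polycomb repressive complex 2 (PRC2) places the mark H3K27me3 on histone H3. EZH2, or in non-dividing cells such as myotubes EZH1, is its catalytic subunit, and SUZ12 is a core subunit that the complex needs to hold together. In differentiated cells PRC2 and H3K27me3 typically lie over the promoters of genes that direct other lineages, most often promoters rich in CpG dinucleotides. CEBPA and PPARγ drive the differentiation of fat cells, RUNX2 and SP7 (osterix) that of osteoblasts, and TAL1 and SPI1 (PU.1) are transcription factors of blood stem cells and myeloid cells. HNF4A is a transcription factor of hepatocytes, while Afp and Alb code for the serum proteins alpha-fetoprotein and albumin and lie side by side.

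Promoter sequence differed between these genes. The promoters below set Cebpa, Tal1 and Pparg, where CpG content was high, beside the liver genes, where it was low. Promoter peaks were found at all of these genes but Pparg. Each runs 5′ to 3′ on the strand of the gene, from 250 bases before to 50 bases after a RefSeq transcript start in GRCm38.p6, the assembly of mm10, with every CG in capitals. RefSeq promoters matched 7 of the 9 genes, all but Spi1 and Sp7, and that of Runx2 is not shown. In the coordinates below, chr7.0 stands for chromosome 7, and the other chromosome names are to be read in the same way.
Cebpa (chr7.0:35119043-35119342, plus strand): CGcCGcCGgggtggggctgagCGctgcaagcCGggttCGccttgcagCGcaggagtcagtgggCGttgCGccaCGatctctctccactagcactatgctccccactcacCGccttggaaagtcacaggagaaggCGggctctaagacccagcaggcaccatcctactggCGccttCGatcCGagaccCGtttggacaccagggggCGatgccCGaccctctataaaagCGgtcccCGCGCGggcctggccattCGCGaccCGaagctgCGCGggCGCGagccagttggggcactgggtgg
Tal1 (chr4.0:115057561-115057860, plus strand): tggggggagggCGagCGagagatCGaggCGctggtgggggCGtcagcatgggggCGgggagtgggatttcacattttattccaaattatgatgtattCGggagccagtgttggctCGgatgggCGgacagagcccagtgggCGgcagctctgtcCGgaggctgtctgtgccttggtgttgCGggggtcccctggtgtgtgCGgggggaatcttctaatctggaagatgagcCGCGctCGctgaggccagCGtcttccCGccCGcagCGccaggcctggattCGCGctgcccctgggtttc
Pparg (chr6.0:115360894-115361193, plus strand): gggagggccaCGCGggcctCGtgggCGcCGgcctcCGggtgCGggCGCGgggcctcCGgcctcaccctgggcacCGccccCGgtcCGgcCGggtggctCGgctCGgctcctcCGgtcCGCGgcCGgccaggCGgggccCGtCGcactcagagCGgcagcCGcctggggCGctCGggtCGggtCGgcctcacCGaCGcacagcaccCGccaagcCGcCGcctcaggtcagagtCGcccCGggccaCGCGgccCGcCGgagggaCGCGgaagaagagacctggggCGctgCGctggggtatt
Hnf4a (chr2.0:163506607-163506906, plus strand): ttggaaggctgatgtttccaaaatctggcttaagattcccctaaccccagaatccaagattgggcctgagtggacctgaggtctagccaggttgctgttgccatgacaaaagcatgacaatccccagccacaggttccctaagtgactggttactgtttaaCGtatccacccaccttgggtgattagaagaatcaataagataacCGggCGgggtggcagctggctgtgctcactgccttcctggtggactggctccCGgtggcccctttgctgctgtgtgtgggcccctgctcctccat
Afp (chr5.0:90490464-90490763, plus strand): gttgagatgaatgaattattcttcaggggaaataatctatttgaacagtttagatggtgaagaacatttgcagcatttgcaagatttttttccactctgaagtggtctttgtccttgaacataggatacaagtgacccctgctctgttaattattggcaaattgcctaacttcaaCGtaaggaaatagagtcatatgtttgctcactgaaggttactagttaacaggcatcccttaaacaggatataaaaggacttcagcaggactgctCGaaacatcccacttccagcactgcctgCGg
Alb (chr5.0:90460620-90460919, plus strand): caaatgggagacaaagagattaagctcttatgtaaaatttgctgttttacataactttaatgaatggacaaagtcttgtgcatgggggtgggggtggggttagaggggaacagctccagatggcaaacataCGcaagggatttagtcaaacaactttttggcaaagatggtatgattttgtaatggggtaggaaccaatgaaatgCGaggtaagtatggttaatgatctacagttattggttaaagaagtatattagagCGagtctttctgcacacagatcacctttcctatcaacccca

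The Cebpa promoter held 29 CG in 300 bases, more than 82.2% of the 20036 RefSeq promoters of protein-coding genes, whose median was 14. The first of 3 Pparg promoters, which is the one shown, held 44 and ranked above 97.0% of them, while those further downstream held 13 and 2. Tal1 held 22 at the start shown, 1385 bp inside the gene record, and 11 at its first start. Hnf4a held 4, and Afp and Alb held 3 each, fewer than most promoters. The Runx2 promoter, which is not shown, held 2 and ranked above 10.4% of them. The letters TATAAA, searched on the strand of the gene alone, occurred in the window of Cebpa and that of Afp and in 7.93% of all promoters. Over the whole promoter window of 6 kb, Cebpa had 5.37 CpG per 100 bp and stood at the 99.4th percentile of all protein-coding genes, followed by Tal1 with 3.18 (88.5th percentile) and Pparg with 2.53 (74.9th). Spi1 and Afp had 1.37, Hnf4a and Sp7 1.23, Alb 0.800 and Runx2 0.783, all at or below the 35.2th percentile.

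Lists of one profile differed in length. Bio-EZH1 lists held 8539 to 19827 peaks and were longest at 24 and 32 h, SUZ12 lists held 21419 to 40379, H3K27me3 lists 45120 to 70796, and HA-EZH1 lists 2347 to 16365. HA-EZH1 lists at 20 and 24 h and H3K27me3 lists at 12 h were the longest of their profile. SUZ12 lists were shortest in the mean at 20 h (23558 peaks) and next at 32 h (26747), where the shortest single list was found (21419). Read depth is not part of the lists, so the precision of a single peak is unknown, and the error given is the standard deviation (SD) between 3 replicates. A longer list covers more promoters, and whether list length accounts for any difference between time points was not tested beyond the values given with equal numbers of peaks.

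Binding was called separately for each time point, and required overlapping peaks with a q-value under 0.01 within 3 kb of the TSS in each of the 3 replicates. Bio-EZH1 bound 4 of the 9 genes at 1 or more time points (Cebpa, Tal1, Hnf4a and Afp), where 12% of all protein-coding genes were bound. SUZ12 bound 5 of 9 (Cebpa, Tal1, Hnf4a, Afp and Alb) against 14.5% of all genes. H3K27me3 marked the same 5 genes, against 24.2% of all genes, and SUZ12 and H3K27me3 were both present at 13.1% of all genes. HA-EZH1 bound Runx2 and Tal1, that is 2 of 9 against 9.85%. At all 6 time points Bio-EZH1 bound 2 genes (Cebpa and Tal1; 6.95% of all genes), SUZ12 3 (Tal1, Afp and Alb; 4.48%), H3K27me3 4 (Cebpa, Tal1, Hnf4a and Alb; 9.95%) and HA-EZH1 0 (0.147%). Pparg, Runx2, Sp7 and Spi1 were bound by none of Bio-EZH1, SUZ12 and H3K27me3 at any time point, as were 74.1% of all genes.

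**Figure D1:**
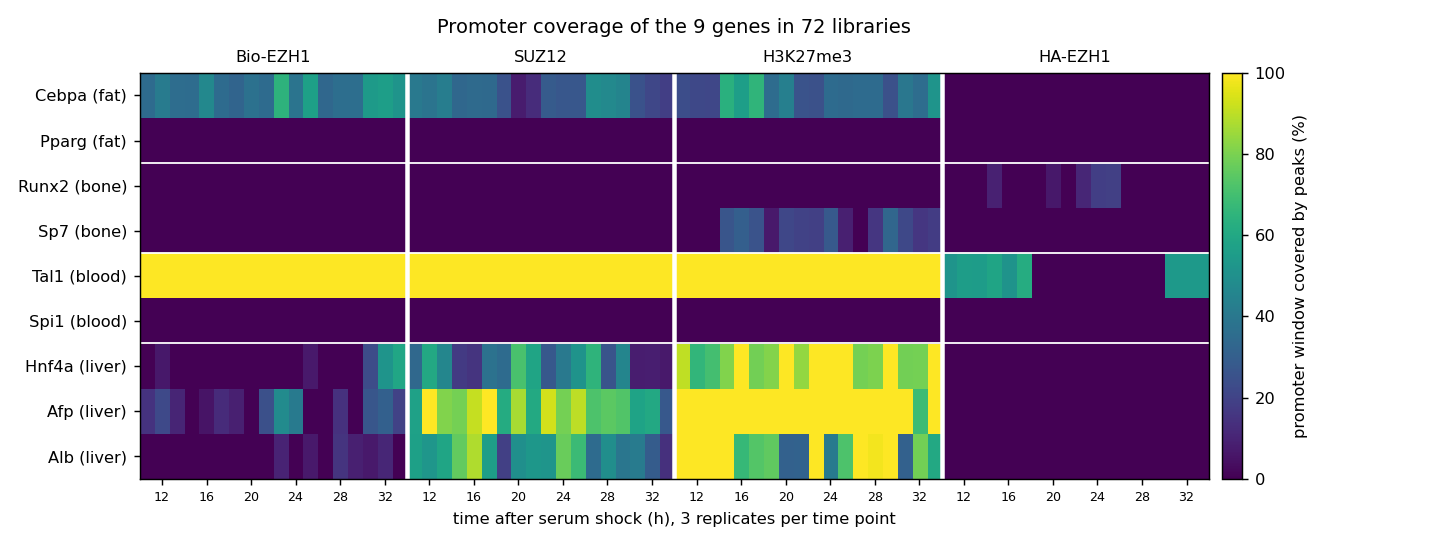
Percent of the promoter window of 6 kb covered by peaks, for each gene (rows) in each of the 72 libraries (columns, 3 replicates per time point in hours, grouped by profile). Tal1 is covered in full in 54 libraries, the 3 liver genes are covered by SUZ12 and H3K27me3 in every library, and Pparg and Spi1 are at 0 throughout.

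By lineage, the liver genes had a SUZ12 and an H3K27me3 promoter peak in 54 of 54 combinations of gene and library. For fat and for blood the figure was 18 of 36 in Bio-EZH1, SUZ12 and H3K27me3 alike, and came from Cebpa alone and from Tal1 alone. Bone genes had no Bio-EZH1 or SUZ12 promoter peak in any library, an H3K27me3 peak in 14 of 36 combinations, all at Sp7, and an HA-EZH1 peak in 5 of 36, all at Runx2. Each lineage is represented by 2 or 3 genes, so these figures describe the genes and not the lineages.

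Among the liver genes, Hnf4a (chr2:163506808-163572910, plus strand) carried H3K27me3 over its TSS in all 18 libraries. Coverage of its promoter window by H3K27me3 ranged from 65.8% to 100%, with a median of 82.7%, and bases covered in at least 9 of the 18 libraries formed a run of 13353 bp over the TSS. SUZ12 covered 33.8, 60.5 and 45.8% in the 3 replicates (12 h), 16.8, 15 and 37.7% (16 h), 34.9, 71.1 and 58.2% (20 h), 27.7, 40.4 and 51.2% (24 h), 65.1, 26.1 and 45.5% (28 h), and 8.02, 8.45 and 6.75% (32 h). All SUZ12 values at 32 h were below those of every other time point, and the other time points overlapped with each other. Bio-EZH1 showed the opposite order at 32 h, with 23.1, 51.6 and 59.1% of the window covered, against a single replicate at 12 h (6.38%), a single replicate at 24 h (7.02%) and no promoter peak in the other 13 libraries. The coverage differed over time in SUZ12 (limma, adjusted p = 0.0119; permutation p = 0.0165) and in Bio-EZH1 (limma, adjusted p = 0.000433; permutation p = 0.00712), but did not pass the test in H3K27me3 (limma, adjusted p = 0.244).

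Background for these tests was high, because promoter coverage differed over time for 54.7% of the genes tested in Bio-EZH1, 73.1% in SUZ12, 66.7% in H3K27me3 and 69.9% in HA-EZH1. A call at one gene is therefore common in these lists. The Hnf4a call in SUZ12 was lost without replicate 2 (adjusted p = 0.075), without replicate 3 (0.155) and with equal numbers of peaks per library (0.0973), and that in Bio-EZH1 without replicate 2 (0.0586). With equal numbers of peaks, 2 Bio-EZH1 libraries kept a promoter peak at Hnf4a, too few to be tested, and 32 h is the time point with the longest Bio-EZH1 lists. Presence of a Bio-EZH1 promoter peak at Hnf4a, in 5 of 18 libraries, did not differ over time by the exact test (adjusted p = 0.211). That test called 0 of 1546 genes (0%) in Bio-EZH1, with 363 at an unadjusted p under 0.05.

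Beyond the promoter, Hnf4a held peaks at further sites. H3K27me3 peaks merged over the libraries formed 3 stretches, each with a peak in all 18 libraries. They lay over the first start, from 26506 to 45272 bp downstream, and from 49968 bp to past the 3′ end. The second promoter of the gene, 40379 bp from the first, lies in the middle stretch. In the mean H3K27me3 covered 27.3% of the gene at 12 h and 56.7 to 60.5% at the later time points. Per library, Bio-EZH1 covered 0 to 10.6% of the gene and SUZ12 0.641 to 17.8%. Bio-EZH1 peaks lay at the second promoter in 7 libraries, all 3 at 24 h and all 3 at 32 h among them, and at the 3′ end in 17 libraries. SUZ12 peaks lay at the second promoter in 5 or 6 libraries, depending on the transcript, and at the 3′ end in 17.

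Afp (chr5:90490737-90508907, plus strand) and Alb (chr5:90460897-90476602, plus strand) start 29840 bp apart, so their values are not independent. Afp had its promoter window covered in full by H3K27me3 in 17 of 18 libraries, with 68.4% in the remaining library at 32 h. Of its gene record, H3K27me3 covered 73.9 to 100%. SUZ12 covered 57.2, 100 and 81.1% of its window (12 h), 79.1, 91.3 and 100% (16 h), 61.5, 86.9 and 60.8% (20 h), 93.3, 79.3 and 90.1% (24 h), 72.1, 74.7 and 72.8% (28 h), and 58.0, 60.4 and 27.4% (32 h). The 32 h values were among the lowest, with 57.2% at 12 h inside their range. Bio-EZH1 peaks at the Afp promoter were found in 13 of 18 libraries and in all 3 replicates at 12 h and at 32 h, and only at 32 h did the 3 replicates overlap. Over the gene, Bio-EZH1 was present in 18 of 18 libraries. Its peaks lay within a stretch from 4474 to 10059 bp downstream of the TSS, with a median fold enrichment of 3.94.

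At Alb, H3K27me3 covered the whole window in all 3 replicates at 12 h, 98.2 to 100% at 28 h, and 30.9 to 78.7% at 32 h. At 20 h the values were 75.6, 31.1 and 31.4%, and the other time points spread from 40.7 to 100%. A single H3K27me3 peak of 76326 to 76861 bp lay over the Alb TSS in each replicate at 12 h, against 31351 bp at most later on. SUZ12 covered 57.0, 52.5 and 58.8% (12 h), 76.1, 88.2 and 56.2% (16 h), 18.9, 49.9 and 52.9% (20 h), 52.3, 77.2 and 68.1% (24 h), 34.9, 49.5 and 39.2% (28 h), and 41.5, 29.1 and 13.7% (32 h). The strongest SUZ12 peak reaching the window of Alb had its summit 1907 to 6192 bp downstream of the TSS, that is within the gene. Bio-EZH1 reached the window in 6 libraries, all at 24, 28 and 32 h and with 6.65 to 15% covered, and lay over the gene in 17 of 18.

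Coverage by SUZ12 differed over time at Afp (limma, adjusted p = 0.0315; permutation p = 0.0316) and at Alb (limma, adjusted p = 0.00785; permutation p = 0.00736). H3K27me3 coverage differed at Alb (limma, adjusted p = 0.034; permutation p = 0.041), not at Afp (limma, adjusted p = 0.459), and Bio-EZH1 coverage passed the test at neither (adjusted p = 0.165 for Afp and 0.145 for Alb). The call at Alb in H3K27me3 ended without the 12 h libraries (0.181), without replicate 2 (0.103), without replicate 3 (0.424) and in a window of 1 kb on either side (0.182). In SUZ12 the call at Alb ended without replicate 2 (0.142), and that at Afp without replicate 1 (0.0538), without replicate 3 (0.524) and on the arcsine square root scale (0.0754), while Afp in Bio-EZH1 became a call without replicate 3 (0.0106).

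Neighbouring bases of the liver pair were marked too. Bases covered by H3K27me3 in at least 9 of 18 libraries formed a run of 28723 bp over the Alb TSS and of 49241 bp over the Afp TSS, and the latter also held the TSS of Afm, the gene of the related serum protein afamin. No single H3K27me3 peak covered both the Alb and the Afp TSS in any library. HA-EZH1 had no promoter peak at Hnf4a, Afp or Alb in any of its 18 libraries.

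**Figure D2:**
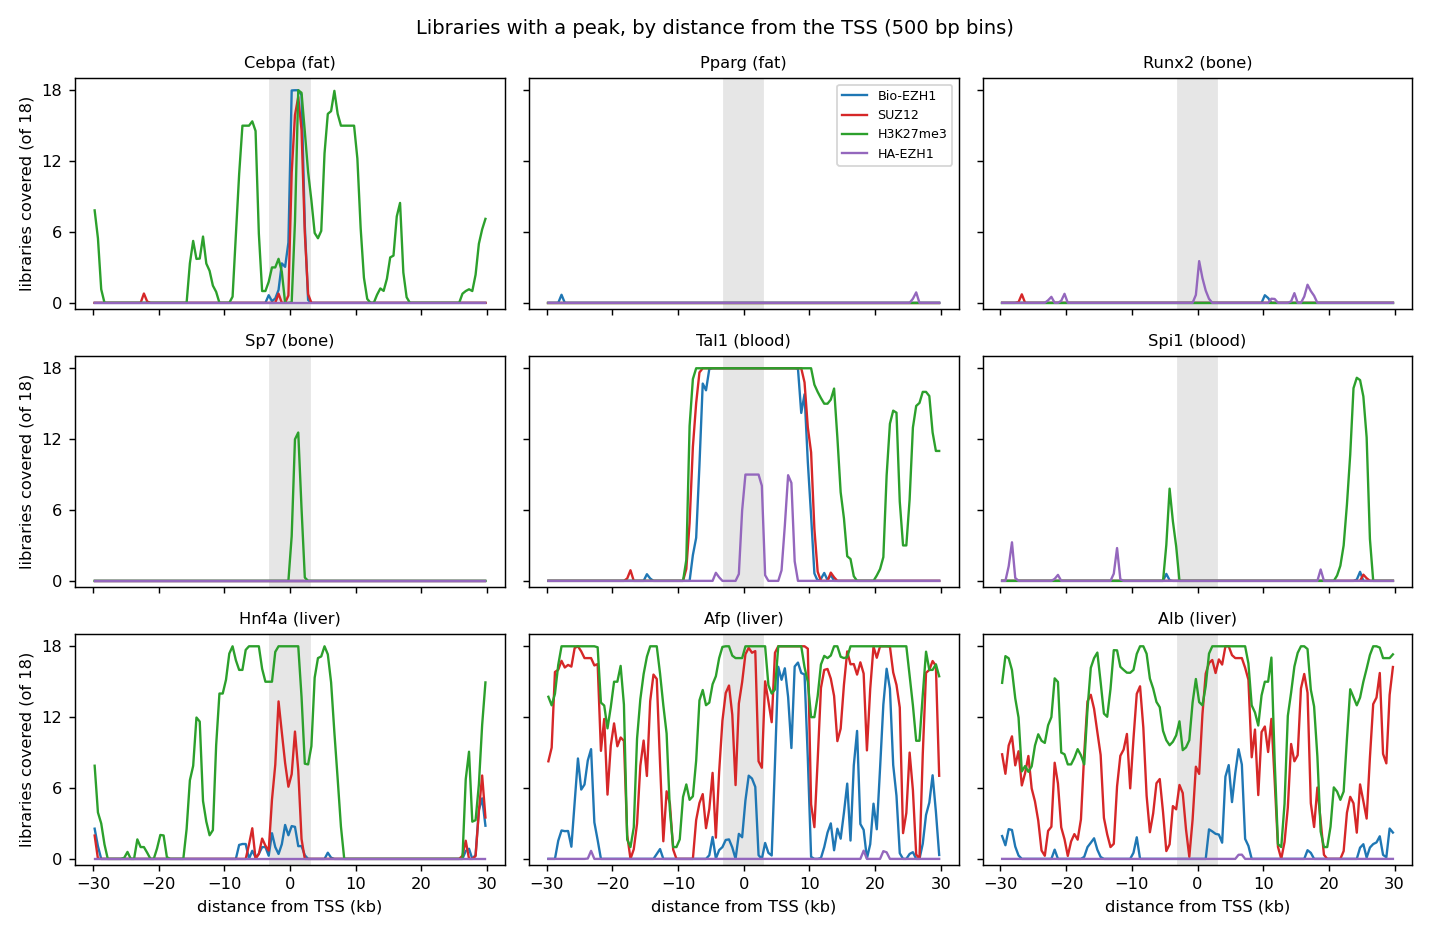
Number of libraries of each profile (of 18, mean over 500 bp bins) that hold a peak at each distance from the TSS in kb, for the 9 genes, with the promoter window shaded and downstream to the right. Tal1 is covered by Bio-EZH1, SUZ12 and H3K27me3 in 18 libraries across the window, Cebpa downstream of its TSS, the liver genes over broad stretches, and Spi1 by H3K27me3 over 20 kb downstream.

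Among the fat genes, Cebpa (chr7:35119293-35121928, plus strand), which is a single exon, carried Bio-EZH1, SUZ12 and H3K27me3 promoter peaks in all 54 libraries and HA-EZH1 in none of 18. Bio-EZH1 covered 35.1, 41.6 and 35.7% of its window (12 h), 35.2, 46.9 and 34.9% (16 h), 32.2, 37.3 and 35.1% (20 h), 64.7, 38.4 and 56.7% (24 h), 33.5, 36.2 and 36.0% (28 h), and 54.5, 56.1 and 51.7% (32 h). The 32 h values lay above all others except those of replicates 1 and 3 at 24 h, and the 24 h values overlapped with those of 12 and 16 h and lay above all those of 20 and 28 h. Bases covered by Bio-EZH1 in at least 9 libraries ran for 2176 bp, from -57 to 2118 bp relative to the TSS, and the peak covered the TSS in 17 of 18 libraries.

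SUZ12 at Cebpa covered 40.5, 38.5 and 42.4% (12 h), 33.2, 34.6 and 34.3% (16 h), 25.1, 7.43 and 12.9% (20 h), 28.6, 27.1 and 27% (24 h), 49.2, 47.0 and 45.0% (28 h), and 25.2, 21.4 and 18.6% (32 h). All values at 28 h exceeded those of every other time point, those at 12 h came next, and the 20 h and 32 h values overlapped with each other. H3K27me3 covered 23.8, 21.6 and 21.3% at 12 h and 63.5, 56.0 and 65.6% at 16 h, with 24.7 to 51.7% at the later time points, so that the 16 h values lay above and the 12 h values below all others. H3K27me3 peaks did not cover the Cebpa TSS in any library, and the peaks in the window began 481 bp or more downstream of it or lay upstream.

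The coverage of Cebpa differed over time in Bio-EZH1 (limma, adjusted p = 0.014; permutation p = 0.0116), in SUZ12 (limma, adjusted p = 1.26e-05; permutation p = 1e-05, the smallest that 100000 permutations can give) and in H3K27me3 (limma, adjusted p = 0.000265; permutation p = 0.00039). The SUZ12 call held under all 9 alternatives, with adjusted p up to 0.00934. SUZ12 lists were, however, shortest in the mean at 20 h, where mean Cebpa coverage was lowest. The Bio-EZH1 call ended without replicate 1 (0.219), without replicate 3 (0.223), with equal numbers of peaks (0.0722) and in a window of 1 kb on either side (0.0934), and the H3K27me3 call ended with peaks of q-value under 0.01 (0.227). The antisense gene Gm45091 starts 312 bp inside Cebpa, and peaks cannot be assigned to either strand.

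**Figure D3:**
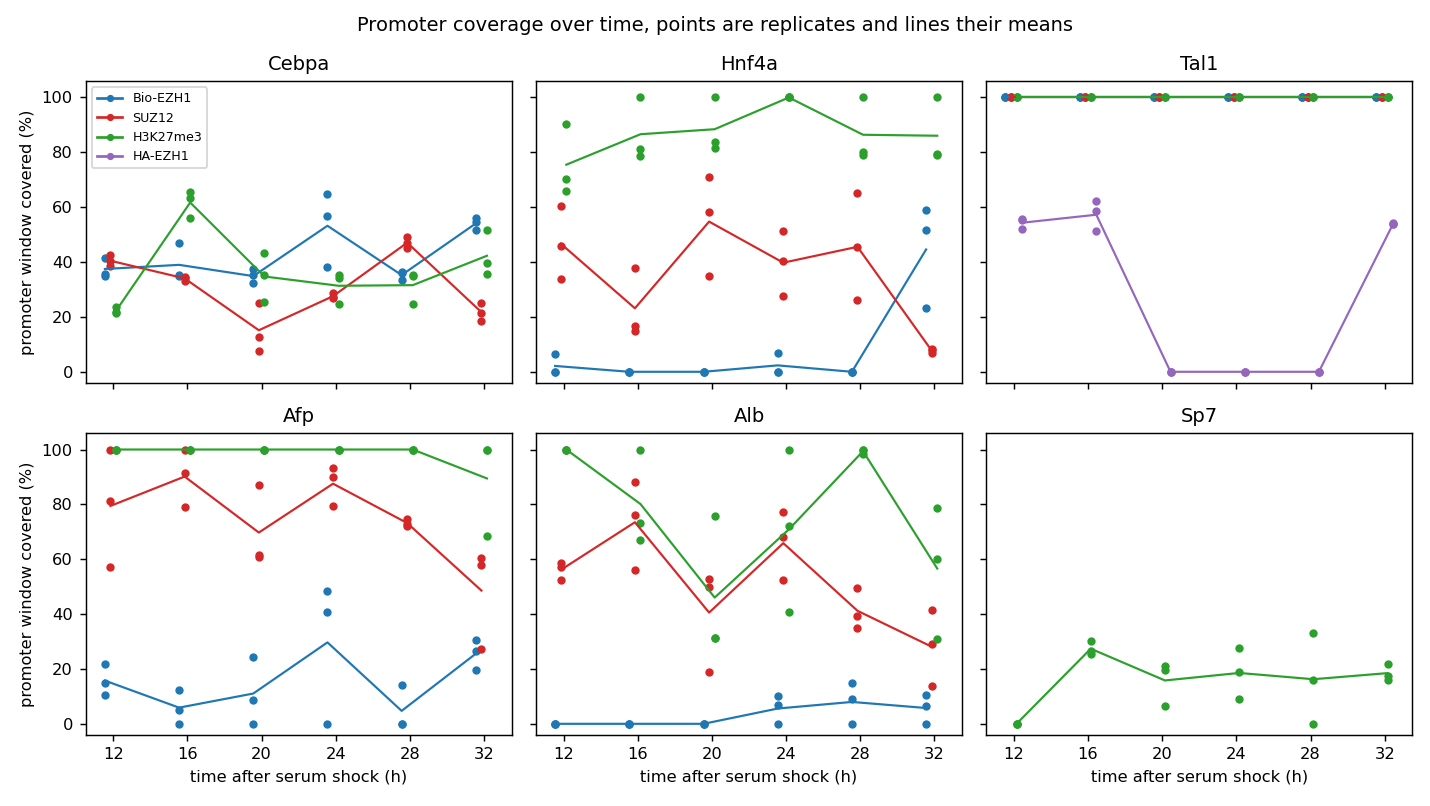
Percent of the promoter window covered by peaks against time after the serum shock in hours, for 6 genes with a promoter peak (points are the 3 replicates, lines their means, colours the 4 profiles, profiles without any peak left out). SUZ12 at Cebpa is highest at 28 h and lowest at 20 h, Bio-EZH1 at Hnf4a is above 7.02% only at 32 h, and HA-EZH1 at Tal1 is at 0 at 20, 24 and 28 h.

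Pparg (chr6:115360951-115490399, plus strand), whose first promoter had the most CG of those shown, had no promoter peak in any of the 72 libraries, nor within 3 kb of its further starts 1341 to 22748 bp downstream. Within 3 kb of each of its last starts, 61115 and 79024 bp downstream, an HA-EZH1 peak was found in 1 library. Over the gene, peaks were found in 2 SUZ12 and 8 HA-EZH1 libraries and in no Bio-EZH1 or H3K27me3 library. An intronic site 118307 to 119535 bp downstream of the TSS (chr6:115479258-115480486) held an HA-EZH1 peak in 5 libraries, of which 3 were those of 24 h, with fold enrichments of 2.10 to 3.99. The remaining 4 HA-EZH1 sites and both SUZ12 sites within Pparg were seen in 1 library each.

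Of the blood genes, Tal1 (chr4:115056426-115071755, plus strand) had its whole promoter window covered by Bio-EZH1, by SUZ12 and by H3K27me3 in all 54 libraries, as was found for 44 genes or 0.202% of all protein-coding genes. The bases covered in at least 9 libraries ran for 16869 bp in Bio-EZH1, 18363 bp in SUZ12 and 22985 bp in H3K27me3. In Bio-EZH1 the strongest peak had fold enrichments of 42.2, 60.6 and 64.9 at 12 h, 32.1 to 50.3 from 16 to 28 h, and 65.4, 79.4 and 65.2 at 32 h. It stood at or above the 99.3th percentile of its own list in every library.

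HA-EZH1 at Tal1 was present in 9 of 18 libraries. It covered 51.9, 55.6 and 55.5% of the window at 12 h, 58.4, 51.2 and 62.1% at 16 h and 54.1, 53.7 and 54.0% at 32 h, with fold enrichments of 5.24 to 6.79, and had no promoter peak in any replicate at 20, 24 or 28 h. The groups of time points did not overlap. Both the presence (exact test, adjusted p = 0.00278, where 59% of the genes tested in HA-EZH1 were called) and the coverage (limma, adjusted p = 1.69e-11; permutation p = 0.00016) differed over time. HA-EZH1 lists were longest at 20 and 24 h, when Tal1 had no HA-EZH1 peak, and shortest at 28 h. With equal numbers of peaks and without the 20 h and 24 h libraries the call on coverage remained. With 2 replicates per time point the exact test called no gene of any profile, and Tal1 had an adjusted p of 0.075 to 0.0794.

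HA-EZH1 at Tal1 lay within the region covered by Bio-EZH1, in a run of 2927 bp, from -169 to 2757 bp relative to the TSS, and in a further site 5553 to 7913 bp downstream, in the same 9 libraries. Bio-EZH1 coverage of the same window was 100% throughout.

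Spi1 (chr2:91082390-91115756, plus strand) had no promoter peak in any library of any profile. H3K27me3 was nonetheless present over the gene in 18 of 18 libraries, in an intronic stretch 21274 to 26384 bp downstream of the TSS (chr2:91103664-91108774) that covered 3.86 to 13.3% of the gene with fold enrichments of 1.95 to 2.82. In 11 libraries an H3K27me3 peak also ended 3 to 6 kb upstream of the TSS, outside the window. How far such peaks reached upstream, and whether they were the same peak, was not read. Bio-EZH1 and SUZ12 peaks over Spi1 were found in 2 libraries each and HA-EZH1 in 1.

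For bone, Runx2 (chr17:44495987-44814797, minus strand) had no Bio-EZH1, SUZ12 or H3K27me3 promoter peak in any library. HA-EZH1 covered 10.9, 18.4 and 18.8% of its window in the 3 replicates at 24 h, 9.35% in 1 replicate at 16 h and 6.55% in 1 replicate at 20 h, with fold enrichments of 2.86 to 4.02. All 24 h values exceeded the others. The coverage differed over time (limma, adjusted p = 0.000241; permutation p = 0.00799), while presence did not pass the exact test (adjusted p = 0.1). Presence passed it with equal numbers of peaks (0.0162) and in a window of 1 kb on either side (0.0496), and without the 20 h and 24 h libraries Runx2 could not be tested. Over the 318811 bp of the gene, HA-EZH1 peaks were found in 14 libraries at 23 separate sites, the promoter included. Of these sites 21 were intronic, 13 were seen at 20 h and 10 were seen in 1 library only. HA-EZH1 lists were longest at 20 and 24 h. The second promoter of Runx2, 78149 to 80104 bp downstream, held an HA-EZH1 peak in 4 libraries.

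Sp7 (chr15:102356606-102367182, minus strand) had an H3K27me3 peak within its promoter window in 14 of 18 libraries and none of the other 3 profiles. Coverage was 0% in all replicates (12 h), 26.5, 30.1 and 25.5% (16 h), 6.65, 21.1 and 19.6% (20 h), 19, 27.7 and 8.90% (24 h), 0, 15.8 and 32.9% (28 h), and 21.9, 16.0 and 17.6% (32 h). Every peak lay downstream of the TSS of the gene record, none over it. That TSS is the start of a processed transcript, and the protein-coding starts lie 214 and 669 bp further downstream. Merged over the libraries, the peaks spanned 13 to 2125 bp downstream, so both coding starts lay within this stretch, though not within every peak. The peaks had fold enrichments of 1.88 to 2.53 and stood at the 2.70th percentile of the list in the median. In 2 libraries the peak had a q-value under 0.01. H3K27me3 lists of 12 h were the longest of the profile, and the Sp7 peak was missing from each. The coverage passed the test (limma, adjusted p = 0.0476; permutation p = 0.0492), but not without the 12 h libraries (0.681) nor without replicate 1, 2 or 3 (0.0933, 0.375 and 0.0548). It was kept in 2 of 9 alternatives, and was also lost with equal numbers of peaks (0.12), with genes covered in at least 1 library tested (0.0533) and with a replicate block (0.0588). Presence did not pass the exact test (adjusted p = 0.057), where 41.4% of the genes tested in H3K27me3 and 42.2% in SUZ12 were called.

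Fold enrichment, the ratio of a peak's signal to the background modelled by the peak caller, was then read for the 5 genes with a SUZ12 promoter peak in all 18 libraries. At Tal1 the strongest SUZ12 peak had a mean fold of 57.1 ± 0.505 (12 h; SD, n = 3), 19.4 ± 1.01 (16 h), 9.60 ± 2.34 (20 h), 16.9 ± 0.345 (24 h), 75.5 ± 4.99 (28 h) and 11 ± 0.486 (32 h). Cebpa was likewise highest at 28 h and lowest at 20 h, with 12.2 ± 1.32 (12 h), 5.31 ± 0.228 (16 h), 1.45 ± 0.191 (20 h), 2.22 ± 0.0762 (24 h), 13.3 ± 1.76 (28 h) and 1.60 ± 0.166 (32 h). Highest and lowest time points thus differed 7.86-fold at Tal1 and 9.15-fold at Cebpa. At the liver genes they differed 1.26-fold at Hnf4a, 2.53-fold at Afp and 1.77-fold at Alb, and the highest time point was 20, 24 and 16 h. The strongest peak was not always the same one at these genes. Its summit lay 8359 to 8699 bp downstream of the TSS of Afp in 8 libraries, the 3 of 28 h among them, and between -2970 and 1642 bp in the others, and beyond 3 kb from the TSS of Alb in 16 of 18, whereas it stayed between 331 and 578 bp at Tal1 and between 556 and 1183 bp at Cebpa.

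Within a library, the ratio of the Tal1 fold to the Alb fold was 8.39 to 10.4 at 12 h and 10.6 to 12.3 at 28 h. It was 0.952 to 3.36 at the remaining time points. The ratio of Cebpa to Alb was 2.00 to 2.10 at 12 h, 1.67 to 2.34 at 28 h and 0.158 to 0.775 otherwise. The 12 and 28 h libraries thus did not overlap with the rest for either ratio. Such a ratio cancels only a factor shared by both peaks of a library. Whether the strength of enrichment differed between libraries was not tested. In rank, the Cebpa peak stood at the 96.8th to 98.5th percentile of its SUZ12 list at 12 and 28 h and at the 0.171th to 1.92th at 20 and 32 h, and Alb between the 83.2th and 97.9th in all lists. These lists differ in length and content, so a rank describes a peak within its own list and is no measure of change.

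The same parting was seen over all genes. Of protein-coding genes with a SUZ12 promoter peak in all 18 libraries, the 554 in the quintile with the most CpG per window had a median fold of 14.6 (12 h), 7.09 (16 h), 3.20 (20 h), 5.21 (24 h), 25.7 (28 h) and 3.38 (32 h). The 278 in the lowest 2 quintiles had 3.80 to 4.81 at every time point. Cebpa and Tal1 belong to the first group and the liver genes to the second. These medians are a description. The lists hold no spike-in factor, and the background used for a fold differs between libraries.

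H3K27me3 folds parted the genes at 12 h. The H3K27me3 lists hold no summit, and peak lengths changed with time as well. The peak at Tal1 spanned 18216 to 19713 bp at 12 h and 22265 to 25215 bp later, while that over the Alb TSS was longest at 12 h. Whether peak length accounts for the differences in fold was not tested. At Tal1 the fold was 2.38 ± 0.0356 at 12 h and 5.39 to 6.69 in the mean at the later time points, and at Cebpa 1.55 ± 0.140 against 2.97 to 3.75. Afp had 3.22 ± 0.0990 at 12 h against 2.92 to 3.80 later, and Alb 2.90 ± 0.0792 against 2.77 to 3.11. The ratio of Tal1 to Alb was 0.788 to 0.853 in the 3 libraries of 12 h and 1.7 to 2.42 in the other 15, without overlap. Hnf4a, whose window is also poor in CpG, was lowest at 12 h as well, with 2.18 ± 0.189 against 2.99 to 4.13. Over all genes marked in all 18 libraries, the median fold at 12 h was 2.08 for the 698 in the highest CpG quintile, against 3.95 to 4.54 later, and 2.52 for the 1418 in the lowest 2 quintiles, against 3.12 to 3.53. The 12 h lists, which were the longest, thus had lower folds in both groups of genes, while Afp and Alb at 12 h lay inside the range of their later means.

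**Figure D4:**
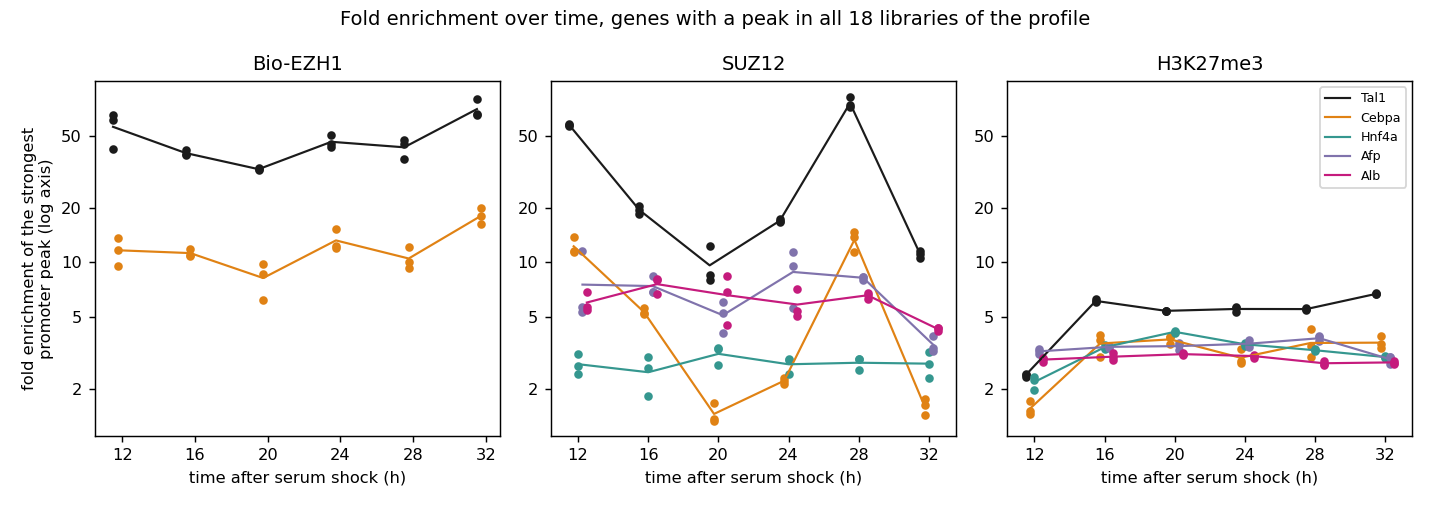
Fold enrichment of the strongest promoter peak (log axis) against time after the serum shock in hours, in Bio-EZH1, SUZ12 and H3K27me3, for genes with a promoter peak in all 18 libraries of the profile (points are the 3 replicates, lines their means). SUZ12 at Tal1 and Cebpa is highest at 12 and 28 h, the liver genes move less, and H3K27me3 at Tal1 and Cebpa is lowest at 12 h.

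The share of genes bound was higher in each CpG quintile than in the one below for Bio-EZH1 and HA-EZH1. From the lowest to the highest CpG quintile, Bio-EZH1 bound 1.01, 7.59, 10.5, 14.9 and 25.9% of genes at 1 or more time points, SUZ12 4.88, 13.9, 12.6, 15.5 and 25.7%, and HA-EZH1 1.1, 4.82, 10.2, 12.9 and 20.2%. SUZ12 departed from this order only between the second and the third quintile. H3K27me3 was most frequent in the second quintile, with 35.6%, against 14.4% in the lowest and 25.2% in the highest. Hnf4a and Afp, both marked by H3K27me3, and Sp7 and Spi1 fall in that second quintile, Alb and Runx2 in the lowest, Pparg in the fourth, and Cebpa and Tal1 in the highest.

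**Figure D5:**
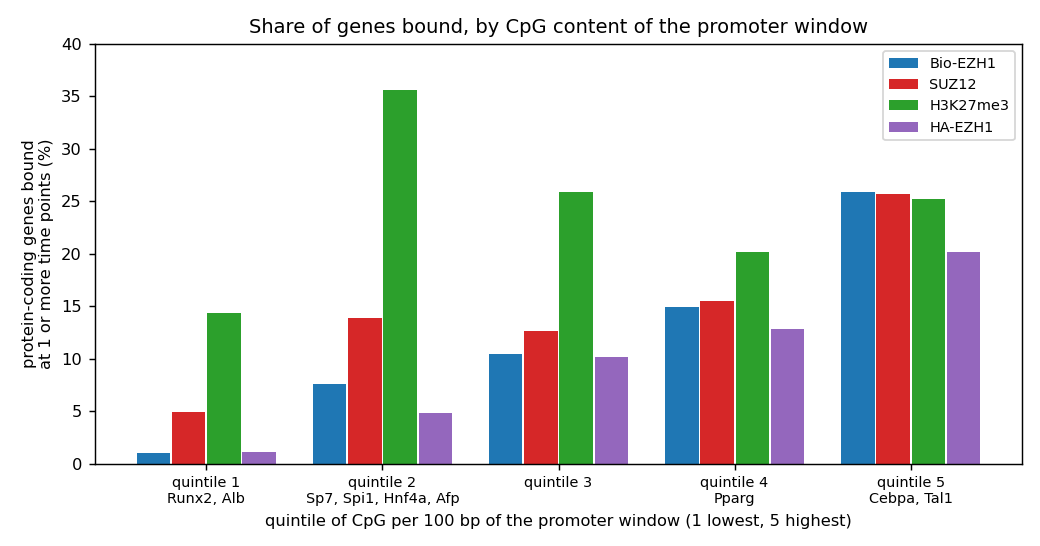
Percent of protein-coding genes bound at 1 or more time points in each profile (bars from 0), by quintile of CpG per 100 bp of the promoter window, with the genes examined here that fall in each quintile named under it. Bio-EZH1 rises from 1.01% in the lowest to 25.9% in the highest quintile, while H3K27me3 is highest, at 35.6%, in the second.

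Other genes of these lineages gave the wider setting, from a list of 27 regulators and 24 products. Bio-EZH1 bound 17 of the 27 regulators (63%, against 12% of all genes), SUZ12 18 (66.7%, against 14.5%), H3K27me3 21 (77.8%, against 24.2%) and HA-EZH1 6 (22.2%, against 9.85%). Of the 24 products Bio-EZH1 bound 6 (25%), SUZ12 9 (37.5%), H3K27me3 11 (45.8%) and HA-EZH1 2 (8.33%, close to the share of all genes). The list was put together by hand, with earlier results of these data known, and its counts are a description. Regulators bound by Bio-EZH1 were Ebf2, Zfp423, Prdm16 and Klf15 for fat, Dlx3, Dlx5 and Msx2 for bone, Gata2, Fli1, Myb, Ikzf1 and Gfi1b for blood, and Foxa1, Foxa2, Foxa3, Onecut1 and Prox1 for liver. Foxa1, a pioneer factor of liver and gut, had its promoter window covered in full by Bio-EZH1 and by SUZ12 in the mean of 18 libraries. The same held for Fli1, a blood and endothelial regulator, with Bio-EZH1 and H3K27me3.

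Products bound by Bio-EZH1 were Lep for fat, Alpl and Sost for bone, and Cd3e, Itgam and Mpo for blood, and none of the 6 further liver products. Of the bone genes in the list Bio-EZH1 bound 3 of 6 regulators and 2 of 6 products, where 12% of all genes were bound, and neither Runx2 nor Sp7. Sost, the gene of the bone protein sclerostin, had a mean Bio-EZH1 coverage of 61.5% with H3K27me3 at 79.7%, and Dlx5, a homeobox gene of bone and face, had 92.6% and 100%.

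Genes with the most similar promoter coverage over the 72 libraries were sought for the 5 genes with a promoter peak in at least 18 of them. Nearest to Tal1 were Hoxb9, Foxl2 and Lbx1, with mean absolute differences of 0.739, 0.977 and 0.993 percentage points, all 3 covered in full by Bio-EZH1, SUZ12 and H3K27me3 in the mean and by HA-EZH1 at 25.1 to 30.5%. Nearest to Cebpa were Ppm1n (5.67 points), Acvr2b (5.90) and Top1mt (6.34). Nearest to Afp were Fcrls (5.96), Taar3 (5.97) and Olfr463 (6.02), to Alb Pmis2 (8.28), Mybpc1 (8.85) and Ifnab (9.01), and to Hnf4a Acr (7.41), Lyz2 (7.48) and Lcn6 (7.58). The neighbours of the 3 liver genes had mean Bio-EZH1 coverages of 0.755 to 18.7% and mean H3K27me3 coverages of 79.0 to 100%.

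Genes of muscle itself were checked against the label of the cells, as far as peaks allow, since the lists hold no expression. Of Myod1, Myog, Myf6, Mef2c, Des, Ckm, Actc1 and Ttn, all but Ckm and Ttn were bound by no profile at any time point. Bio-EZH1, SUZ12 and H3K27me3 each bound 1 of the 8 (Ckm), against 12%, 14.5% and 24.2% of all genes. HA-EZH1 bound 1 of the 8 (Ttn), against 9.85%. With 8 genes, these counts say little about the cells. Ckm, the muscle creatine kinase, was bound by Bio-EZH1 and marked by H3K27me3 at all 6 time points and bound by SUZ12 at 5, and HA-EZH1 bound Ttn, the gene of titin, at 2 time points.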

How the data were processed

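Peak lists from ChIP-seq of C2C12 myotubes after synchronization were analysed for Bio-EZH1, SUZ12, H3K27me3 and HA-EZH1. Per the labels and the study's methods, the authors aligned reads with BWA 0.7.17 to mm10 and to the Drosophila genome BDGP6, kept reads with SAMtools 1.7 after removing duplicates with Picard, and called peaks with MACS2 2.2.4. The filter applied after peak calling is not given in the sources used here. For each peak the deposited lists hold a score, a fold enrichment (ratio of signal to modelled background), and p-values and q-values as −log10. The largest q-value is 0.05, or 0.1 in H3K27me3. Spike-in factors and read depths are not part of the lists, so no counting interval was computed.

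Genes were those of GENCODE M21, whose 5′ ends gave the TSS. The percent of the promoter window covered by peaks was tested over the 6 time points with limma 3.58.1 (moderated F test, trend) for genes covered in at least 3 libraries of a profile, and presence with an exact test of how libraries with a peak spread over time points, for genes with a peak in 3 to 15 libraries. The Benjamini-Hochberg adjustment ran over all genes tested in a profile, at a threshold of 0.05. For single genes the F statistic was also permuted 100000 times, unadjusted. These tests have no direction, and the scripts were tested on simulated data. P-values compare time points within these samples only. All 9 genes were named, other lineage genes when bound by Bio-EZH1, and genes of similar coverage as the 3 nearest with a TSS over 100 kb away. A further list gene is not reported here. The genes, lists and tests were chosen with earlier results of these data known, and fold ratios after the values were seen. CpG content was counted in GRCm38.p6, whose chromosome lengths fit all peaks. Alternatives were other q-values, windows, TSS definitions, scales, equal numbers of peaks, a replicate block, and leaving out replicates or time points. Runs used Python 3.11.15, numpy 2.4.6, pandas 2.3.3, scipy 1.17.1 and R 4.3.3.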

Additional observations from a re-analysis of the deposited data

How the results depend on the processing

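Replicate numbers showed no pairing of the libraries. The deviation of each library's promoter coverage from the mean of its time point was correlated between time points. For the same replicate number these correlations ranged from -0.0938 to 0.130 in Bio-EZH1 and from -0.259 to 0.197 in SUZ12. They ranged from -0.0313 to 0.0490 in H3K27me3 and from -0.123 to 0.0811 in HA-EZH1. In this order the means were -0.00217, -0.00558, 0.00560 and -0.000974. For other numbers they were 0.00108, 0.00307, -0.00280 and 0.000487. With the replicate block, promoter coverage differed over time at 2 genes in Bio-EZH1, 4 in SUZ12, 2 in H3K27me3 and 2 in HA-EZH1, with 1745, 2830, 4630 and 2288 of all genes called, and the only call that changed was Sp7 in H3K27me3 (adjusted p = 0.0588).

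In a window of 1 kb on either side, Bio-EZH1 bound 2 genes in place of 4. At a q-value under 0.001, H3K27me3 marked 1 gene at all 6 time points in place of 4. Numbers of genes whose coverage differed over time fell from 2 to 1 with the 1 kb window and to 0 with equal numbers of peaks in Bio-EZH1, from 3 to 1 in H3K27me3 with a q-value under 0.01 and likewise without the 12 h libraries, and from 2 to 1 in HA-EZH1 without the 20 h and 24 h libraries, where Runx2 could not be tested. Leaving out each replicate gave 1 to 2 genes in Bio-EZH1, 2 to 3 in SUZ12 and 1 to 2 in H3K27me3. Genes whose HA-EZH1 presence differed rose from 1 to 2 in the 1 kb window and with equal numbers of peaks, and were 0 to 0 with a replicate left out. Over all genes, coverage calls in Bio-EZH1 went from 1844 to 914 in the 1 kb window and to 665 to 1030 with a replicate left out. In H3K27me3 they went from 4725 to 3129 in the 1 kb window and to 1477 without the 12 h libraries. The exact test of presence called 22 genes in place of 0 in Bio-EZH1 in the 1 kb window, and 0 in every profile with a replicate left out, where 2 libraries per time point leave few possible p-values. Under the alternatives, 124 further counts stayed within 1.5 times their main value. For changes not due to fewer libraries or peaks, the cause was not tested. A limma interaction of profile and time point for Bio-EZH1 against HA-EZH1, chosen after the values were seen, compares no pair of time courses here, since 1 profile was constant at 0% or 100% at all 6 genes tested, and is not used. Depth is unknown, so absence of a peak does not show absence of the protein or mark.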
